A study of Homo sapiens with 3 samples.

Results

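The mitotic genes are 38 human genes that carry a cell through division: the kinase CDK1 with its cyclins and phosphatases, the Aurora and Polo kinases, the spindle checkpoint kinases, kinetochore proteins, mitotic kinesins, spindle proteins, regulators of the anaphase-promoting complex and the proteins that finish cell division. They were taken by name from a table of 44591 genes, and all 38 were found in it. The cells were Caki-1, an established human renal carcinoma line that the study describes as carrying wild-type p53, collected 48 h after transfection with a non-targeting siRNA (si-Control) or an siRNA against HOIL-1, the protein of the RBCK1 gene (si-HOIL-1#1 or si-HOIL-1#2). No other genotype or treatment distinguishes the groups, and the general transfection paragraph of the methods gives 10 nmol/L of siRNA. With 1 library in each group, none of the differences could be checked against replicates, and no p-value was computed. Each siRNA was compared on its own with the same si-Control library.

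Levels are given in RPKM, which scales reads by the length of the gene and the size of the library. The libraries were scaled by 36926834 reads (si-Control), 40442939 reads (si-HOIL-1#1) and 36344428 reads (si-HOIL-1#2). Of all genes, 12403 averaged 1 RPKM or more, and all 38 mitotic genes were among them. A log2 ratio below is on the log2(RPKM + 1) scale unless it is said to be on reads, and that scale understates the change of genes with low levels. Intervals are exact Clopper-Pearson intervals (95%) on reads without the pseudocount. They cover counting error only and say nothing of differences between cultures. RBCK1, a subunit of the linear ubiquitin chain assembly complex, was at 33.3 RPKM in si-Control, 9.97 in si-HOIL-1#1 and 12.3 in si-HOIL-1#2, so it was at 29.9% and 36.8% of the control level. Of 10 renal epithelial markers, 8 reached 1 RPKM in some library, among them PAX8 with 124, 82.5 and 107 RPKM in the same order. PAX2 and CA9 stayed below 0.1 RPKM. The summed level of the 10 markers was 1173, 2078 and 2088 RPKM, of which VIM alone made up 664, 1512 and 1392 RPKM. The 7 that passed the filter went both ways, with 3 higher and 4 lower with si-HOIL-1#1 and 4 higher and 3 lower with si-HOIL-1#2. None of 6 blood cell markers exceeded 0.315 RPKM.

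The siRNA target sequences are shown because the mitotic genes were also searched for the stretch that pairs with guide positions 2 to 8, the seed, given in capitals. Each line gives the strand of the RBCK1 transcript that the guide pairs with, and both match the longest coding RBCK1 transcript (2774 nt), from base 1307 to 1325 and from base 1749 to 1767.
si-HOIL-1#1: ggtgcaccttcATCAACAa
si-HOIL-1#2: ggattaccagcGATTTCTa

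Entry into mitosis is driven by CDK1, a kinase that is active only when bound to a cyclin. CDC25 phosphatases remove the phosphates that hold CDK1 inactive, and PLK1 and the Aurora kinases then act on centrosomes, chromosomes and kinetochores. Kinetochores link centromeres to spindle microtubules, the checkpoint kinases hold the cell in metaphase until all links are made, and the anaphase-promoting complex with CDC20 then marks cyclin B and securin for degradation. Most of these genes are transcribed in G2 phase under the transcription factor FOXM1 and the B-MYB and MuvB complex, are kept silent in resting cells by the DREAM complex, and serve as markers of proliferating cells in tumors. In a bulk sample, a smaller share of cells in G2 or mitosis and less of an mRNA per cell cannot be told apart.

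As a group the mitotic genes were well expressed, and their summed level was close to equal in the 3 libraries. Single levels ran from 2.56 RPKM (CENPE with si-HOIL-1#1) to 51.4 RPKM (BIRC5 with si-HOIL-1#1), and the reads behind them from 300 to 11453 per gene and library. The median gene of the group stood at percentile 71.0 of the 12403 genes with si-Control, 70.1 with si-HOIL-1#1 and 69.8 with si-HOIL-1#2. The 38 levels summed to 749 RPKM in si-Control, 753 in si-HOIL-1#1 and 777 in si-HOIL-1#2. With si-Control the most abundant were PTTG1 (51.1 RPKM), CDC20 (47.3 RPKM) and UBE2C (41.9 RPKM). The least abundant there were CCNF (3.38 RPKM), KIF20A (3.84 RPKM) and CDC25C (4.12 RPKM).

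**Figure D1:**
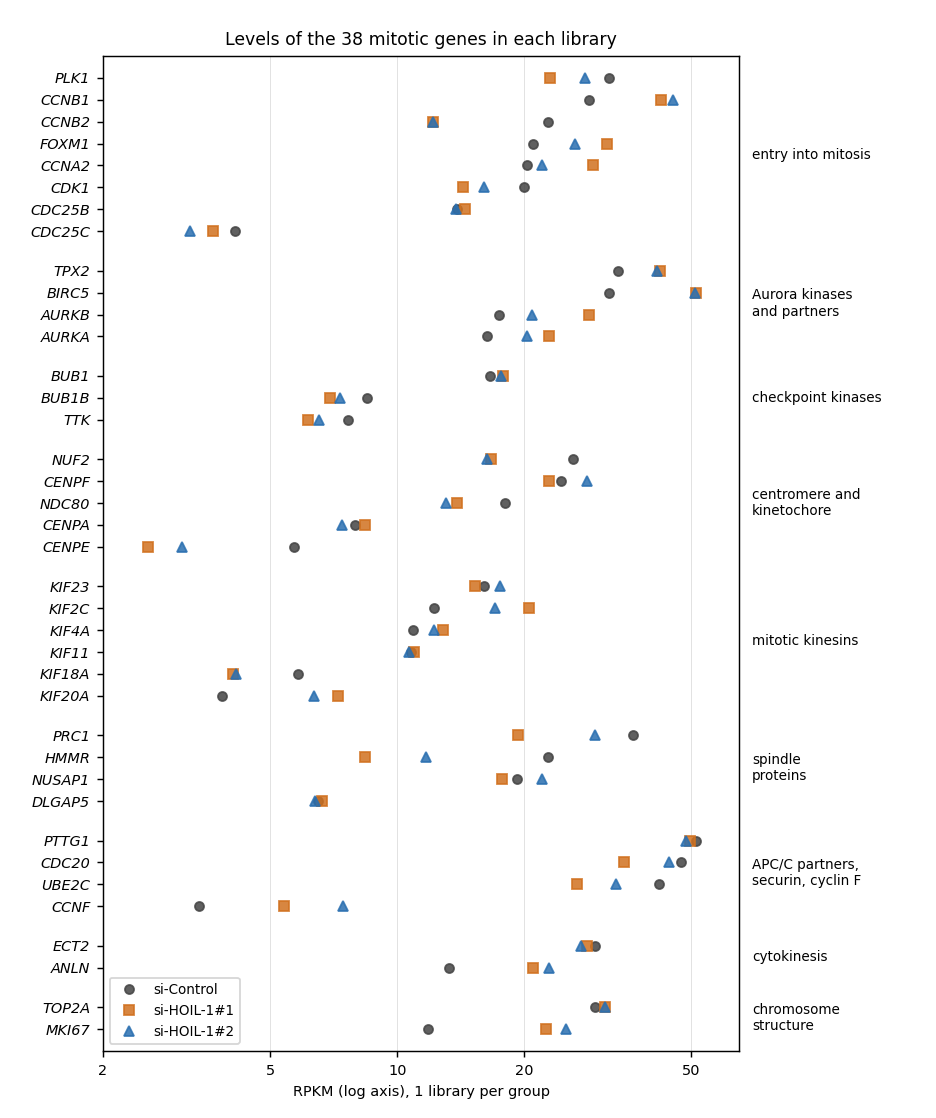
RPKM (log axis) of each of the 38 mitotic genes in the si-Control (grey circles), si-HOIL-1#1 (orange squares) and si-HOIL-1#2 (blue triangles) libraries, with 1 library per group and genes grouped by role. HMMR, CCNB2, CENPE and NUF2 have si-Control on the right, while MKI67, BIRC5, ANLN and KIF20A have it on the left.

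The mitotic genes did not move in 1 direction: some were well above and others well below si-Control, with a median near 0. The median log2 ratio of the 38 genes was -0.0097 with si-HOIL-1#1 and -0.0084 with si-HOIL-1#2, beside 0.02 and 0.03 over all 12403 genes. With si-HOIL-1#1, 6 of 38 (15.8%) were at least 1.5-fold higher than with si-Control, where 12.1% of all genes were, and 6 of 38 were at least 1.5-fold lower, where 11.6% of all genes were. With si-HOIL-1#2, 6 of 38 were at least 1.5-fold higher, beside 11.3% of all genes, and 4 of 38 (10.5%) were at least 1.5-fold lower, beside 9.32% of all genes. These shares lie near the background. The other 26 and 28 genes lay within 1.5-fold of si-Control on the log2(RPKM + 1) scale.

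Most of the differences were larger than counting error, as they were for genes in general. Higher than si-Control by any amount were 19 of 38 with si-HOIL-1#1, beside 51.5% of all genes, and 18 of 38 with si-HOIL-1#2, beside 53.5% of all genes. The counting interval lay above 0 for 14 genes and below 0 for 15 with si-HOIL-1#1, where the shares over all genes were 40.2% and 37.5%. With si-HOIL-1#2 it lay above 0 for 17 and below 0 for 15, beside 41.0% and 34.1% of all genes. On the log2(RPKM + 1) scale, HMMR alone was at least 2-fold lower with si-HOIL-1#1 (3.27% of all genes). None of the 38 was 2-fold higher there (2.91% of all genes). With si-HOIL-1#2, MKI67 alone was at least 2-fold higher on that scale (2.50% of all genes). None of the 38 was 2-fold lower there (2.27% of all genes). In plain RPKM, CENPE was also more than 2-fold lower with si-HOIL-1#1 (45.2% of si-Control). CCNF was also more than 2-fold higher in plain RPKM with si-HOIL-1#2 (220% of si-Control).

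**Figure D2:**
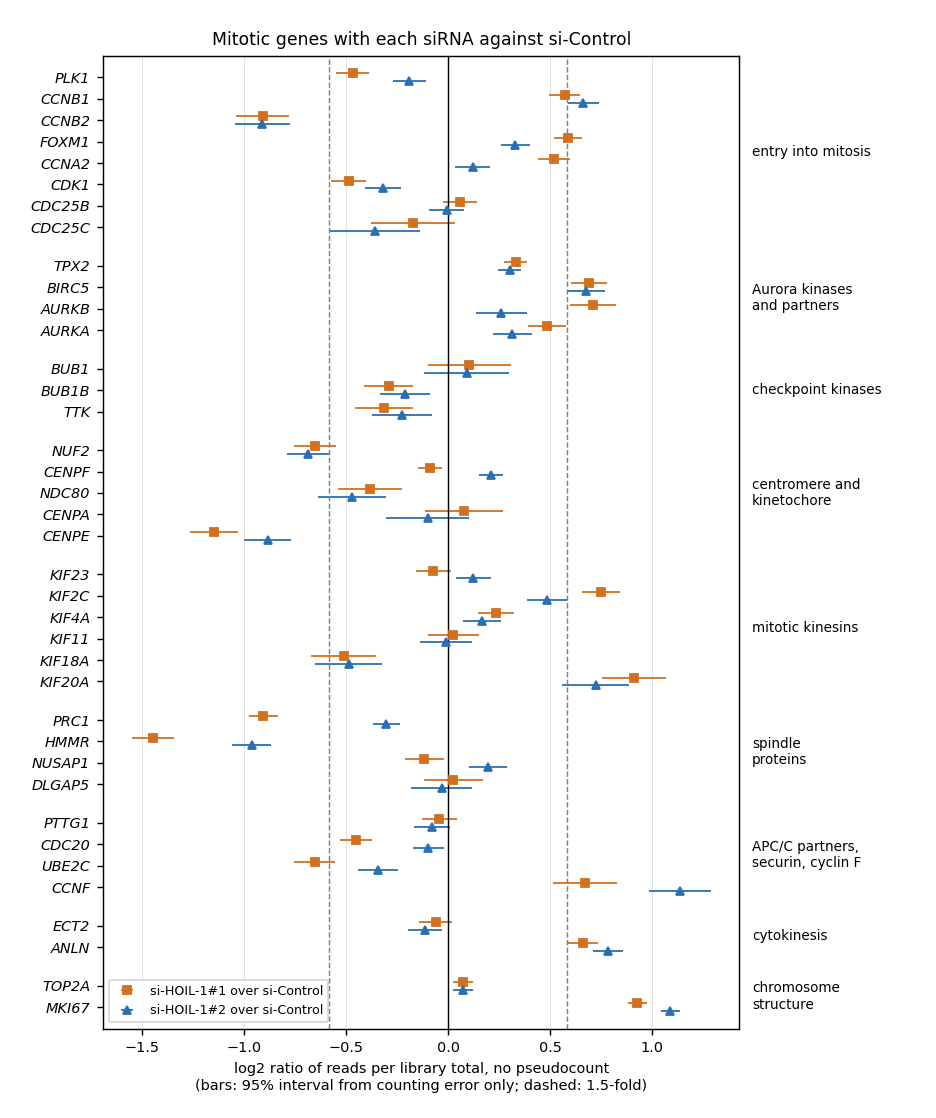
Log2 ratio of reads per library total for each mitotic gene with si-HOIL-1#1 (orange squares) and si-HOIL-1#2 (blue triangles) over the shared si-Control library, without a pseudocount. Bars are 95% intervals from counting error alone and dashed lines mark 1.5-fold, with HMMR farthest to the left and MKI67 and CCNF farthest to the right.

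Among the 8 genes that start mitosis, the B-type cyclins stood on opposite sides of si-Control. CCNB1 (cyclin B1, chromosome 5 from 68462837 to 68474072 on the plus strand, hg19) is the main partner of CDK1 in mitosis and shuttles between cytoplasm and nucleus. It was at 28.5 RPKM in si-Control, 42.3 in si-HOIL-1#1 and 45.1 in si-HOIL-1#2. Its log2 ratios were 0.55 (interval on reads 0.50 to 0.65) and 0.64 (0.59 to 0.74), just under and just over the 1.5-fold limit of 0.585. CCNB2 (cyclin B2, chromosome 15 from 59397284 to 59417244 on the plus strand), the partner found at the Golgi apparatus, was at 22.8, 12.1 and 12.1 RPKM in the same order. Its level with each siRNA was a little over 53% of si-Control, with log2 ratios of -0.86 (interval on reads -1.04 to -0.78) and -0.86 (-1.05 to -0.78). The ratio of CCNB1 to CCNB2 RPKM was 1.249 with si-Control, 3.48 with si-HOIL-1#1 and 3.72 with si-HOIL-1#2.

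The promoters of these 2 cyclins are shown because the genes share a role and lay on opposite sides of si-Control. Each line is the 250 bases before the RefSeq start in GRCh38.p14, on the gene's own strand. Capitals mark TTTGAA or TTCGAA, the core letters of the cell cycle genes homology region (CHR) that MuvB complexes bind, and CCAAT, the box bound by NF-Y, each in either direction (TTCAAA and ATTGG on the other strand, TTCGAA reading the same on both). The CCNB1 stretch (chr5:69166900-69167149, plus strand) held CCAAT at 2 places and neither TTTGAA nor TTCGAA. The CCNB2 stretch (chr15:59104896-59105145, plus strand) held CCAAT at 4 places and TTTGAA at position -29 from the start. Other forms of the CHR and other starts of each gene were not searched, so whether the 2 promoters differ in having a CHR was not tested.
CCNB1: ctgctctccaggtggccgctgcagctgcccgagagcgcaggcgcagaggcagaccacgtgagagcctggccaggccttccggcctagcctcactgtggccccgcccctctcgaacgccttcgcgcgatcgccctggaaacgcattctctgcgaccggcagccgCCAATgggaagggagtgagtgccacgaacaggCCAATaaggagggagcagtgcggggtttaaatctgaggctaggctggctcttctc
CCNB2: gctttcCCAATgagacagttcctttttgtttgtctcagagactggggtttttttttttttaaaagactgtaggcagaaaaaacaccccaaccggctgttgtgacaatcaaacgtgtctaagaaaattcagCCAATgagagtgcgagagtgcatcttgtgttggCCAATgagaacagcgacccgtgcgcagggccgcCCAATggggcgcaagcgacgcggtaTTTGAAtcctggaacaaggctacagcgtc

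CDK1 itself, the kinase of both cyclins, was at 20.05 RPKM in si-Control, 14.3 in si-HOIL-1#1 and 16.1 in si-HOIL-1#2, with log2 ratios of -0.46 and -0.30. CCNA2 (cyclin A2), which works with CDK2 in S phase and with CDK1 at mitotic entry, was at 20.3, 29.1 and 22.1 RPKM. Its log2 ratio was 0.50 (interval on reads 0.44 to 0.60) with si-HOIL-1#1 and 0.11 (0.03 to 0.21) with si-HOIL-1#2. PLK1, the Polo kinase of centrosomes and kinetochores, lay on the other side, with 31.9, 23.0 and 27.9 RPKM and log2 ratios of -0.45 and -0.18. FOXM1, the transcription factor of the G2 gene program, was at 21.0 RPKM in si-Control, 31.5 in si-HOIL-1#1 and 26.4 in si-HOIL-1#2. Its log2 ratios were 0.57 and 0.32. RHNO1, a gene on the opposite strand that overlaps FOXM1, was at 24.2, 17.9 and 18.7 RPKM. Of the phosphatases, CDC25B differed little, with 13.9, 14.4 and 13.8 RPKM. CDC25C was at 4.12, 3.66 and 3.21 RPKM. Its log2 ratio was -0.14 (interval on reads -0.38 to 0.04) with si-HOIL-1#1 and -0.28 (-0.58 to -0.14) with si-HOIL-1#2. Over the 8 genes the median log2 ratio was -0.04 and -0.10.

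All 4 genes of the Aurora kinases and their partners lay above si-Control in each comparison, with medians of 0.57 for si-HOIL-1#1 and 0.30 for si-HOIL-1#2. Their summed level was 99.2 RPKM in si-Control, 145 in si-HOIL-1#1 and 134 in si-HOIL-1#2. AURKA (chromosome 20 from 54944445 to 54967393 on the minus strand), the kinase of centrosomes and spindle poles, was at 16.4, 22.9 and 20.4 RPKM. TPX2, which activates AURKA on spindle microtubules, was at 33.5, 42.2 and 41.3 RPKM. Their log2 ratios were 0.46 and 0.30 for AURKA and 0.32 and 0.29 for TPX2, all within 1.5-fold.

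AURKB and BIRC5 belong to the chromosomal passenger complex, which corrects faulty attachments at centromeres and later acts at the midzone. AURKB (chromosome 17 from 8108049 to 8113944 on the minus strand) was at 17.4 RPKM in si-Control, 28.5 in si-HOIL-1#1 and 20.9 in si-HOIL-1#2. Its log2 ratio passed the 1.5-fold limit with si-HOIL-1#1 (0.68, interval on reads 0.60 to 0.82) and not with si-HOIL-1#2 (0.25, 0.14 to 0.39). BIRC5 (survivin, chromosome 17 from 76210277 to 76221716 on the plus strand) was at 31.9, 51.4 and 50.9 RPKM, which is 161% and 160% of si-Control. The other members of the complex differed from each other. INCENP, its scaffold, was at 6.61, 12.04 and 14.3 RPKM (log2 ratios 0.78 and 1.00), while CDCA8 (borealin) was at 9.99, 9.20 and 10.9 RPKM (-0.11 and 0.12).

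The spindle checkpoint kinases lay within 1.5-fold of si-Control throughout. BUB1, which marks centromeric chromatin by phosphorylating histone H2A, was at 16.6, 17.8 and 17.7 RPKM, and both counting intervals included 0. Its reads are minimum numbers, from a length fitted at 0.169 of the transcript, so these intervals may be wider than needed. BUB1B (the checkpoint protein BUBR1) was at 8.49 RPKM in si-Control, 6.94 in si-HOIL-1#1 and 7.33 in si-HOIL-1#2. TTK (the checkpoint kinase MPS1) was at 7.64, 6.14 and 6.54 RPKM. The log2 ratios were -0.26 and -0.19 for BUB1B and -0.27 and -0.20 for TTK, with intervals below 0 in each case. MAD2L1, the checkpoint protein that these kinases bring to the kinetochore, was at 42.5, 47.1 and 41.8 RPKM.

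Of the 5 centromere and kinetochore genes, CENPE and NUF2 were at least 1.5-fold lower in each comparison, beside 11.6% and 9.32% of all genes, and the median log2 ratio of the 5 was -0.36 and -0.44. Centred by GC content, as described further on, NUF2 was within the limit in each comparison and CENPE with si-HOIL-1#2. Their summed level was 82.3 RPKM in si-Control, 64.4 in si-HOIL-1#1 and 68.1 in si-HOIL-1#2. CENPE (chromosome 4 from 104026963 to 104119566 on the minus strand), the kinesin-like motor that carries chromosomes to the metaphase plate, was at 5.67, 2.56 and 3.08 RPKM. Its level was 45.2% and 54.2% of si-Control, with log2 ratios of -0.91 and -0.71. On reads alone the ratios were -1.15 (interval -1.26 to -1.03) and -0.88 (-0.998 to -0.77), from 1805, 893 and 963 reads.

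NUF2 and NDC80 pair as the microtubule-binding arm of the Ndc80 complex. NUF2 (chromosome 1 from 163291723 to 163325553 on the plus strand) was at 26.2 RPKM in si-Control, 16.7 in si-HOIL-1#1 and 16.3 in si-HOIL-1#2, with log2 ratios of -0.62 (interval on reads -0.75 to -0.55) and -0.65 (-0.79 to -0.58). NDC80 was at 18.03, 13.8 and 13.02 RPKM, with log2 ratios of -0.36 and -0.44. The chromatin-side arm of the same complex lay on the other side of si-Control. SPC24 was at 5.49, 13.6 and 11.04 RPKM (log2 ratios 1.17 and 0.89) and SPC25 was at 6.62, 11.8 and 8.48 RPKM (0.75 and 0.32). CENPA, the histone H3 variant that marks centromeres, was at 7.93, 8.36 and 7.40 RPKM. CENPF, a large protein of the outer kinetochore, was at 24.4, 22.9 and 28.3 RPKM. Neither CENPA nor CENPF was 1.5-fold from si-Control.

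The 6 mitotic kinesins ranged from above to below si-Control, with a median log2 ratio of 0.12 and 0.13. KIF20A (chromosome 5 from 137514417 to 137523404 on the plus strand), the motor that carries the passenger complex to the midzone, was at 3.84 RPKM in si-Control, 7.22 in si-HOIL-1#1 and 6.34 in si-HOIL-1#2. Its level was 188% and 165% of si-Control, with log2 ratios of 0.77 and 0.60. CDC23, which overlaps KIF20A on the opposite strand, was at 19.4, 29.1 and 23.2 RPKM, and whether its reads were kept apart from those of KIF20A was not tested. KIF2C (chromosome 1 from 45205490 to 45233439 on the plus strand), a kinesin that depolymerizes microtubules at centromeres, was at 12.2, 20.5 and 17.1 RPKM. Its log2 ratio was 0.70 (interval on reads 0.66 to 0.84) with si-HOIL-1#1 and 0.45 (0.39 to 0.58) with si-HOIL-1#2.

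The other 4 kinesins lay within 1.5-fold. KIF11 (Eg5), the motor that pushes spindle poles apart, was at 10.8, 10.97 and 10.7 RPKM, with both counting intervals across 0. The length fitted for KIF11 was 0.522 of its transcript, so these intervals may be wider than needed. KIF4A, a chromosome arm motor, was at 10.9, 12.8 and 12.2 RPKM. KIF23, the motor of centralspindlin, was at 16.1, 15.3 and 17.5 RPKM, and its partner RACGAP1 was at 18.2, 18.1 and 19.2 RPKM. KIF18A, which dampens chromosome oscillations, was below si-Control, with 5.80 RPKM against 4.07 and 4.14 RPKM and log2 ratios of -0.42 and -0.40.

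Among the 4 spindle proteins, HMMR had the lowest ratio of all 38 genes in each comparison. HMMR (hyaluronan-mediated motility receptor, chromosome 5 from 162887517 to 162918951 on the plus strand) helps to place the spindle and binds TPX2. It was at 22.9 RPKM (2651 reads) in si-Control, 8.39 (1066 reads) in si-HOIL-1#1 and 11.7 (1339 reads) in si-HOIL-1#2. The level was 36.7% and 51.3% of si-Control, with log2 ratios of -1.34 and -0.91. On reads, without the pseudocount, they were -1.45 (interval -1.55 to -1.34) and -0.96 (-1.06 to -0.87). The antisense RNA HMMR-AS1 was listed at 0.277, 0.0390 and 0.0217 RPKM.

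PRC1 (chromosome 15 from 91509268 to 91537881 on the minus strand), which bundles antiparallel microtubules of the midzone, was the mitotic gene whose level differed most between the siRNAs. It was at 36.4 RPKM in si-Control, 19.4 in si-HOIL-1#1 and 29.5 in si-HOIL-1#2, which is 53.4% and 81.1% of si-Control. NUSAP1, which binds spindle microtubules near chromatin, was at 19.2, 17.7 and 22.02 RPKM. DLGAP5, which stabilizes kinetochore fibers, was at 6.498, 6.61 and 6.36 RPKM, with counting intervals across 0.

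Of the genes around the anaphase-promoting complex, its activator CDC20 and its ubiquitin-conjugating enzyme UBE2C lay below si-Control. CDC20 was at 47.3, 34.6 and 44.2 RPKM, with log2 ratios of -0.44 and -0.10. UBE2C (chromosome 20 from 44441215 to 44445596 on the plus strand) was at 41.9, 26.7 and 33.0 RPKM, with a log2 ratio of -0.63 with si-HOIL-1#1, past the limit, and -0.33 with si-HOIL-1#2. PTTG1 (securin), which holds separase inactive until anaphase, was at 51.1, 49.7 and 48.5 RPKM, with both counting intervals across 0. CCNF (cyclin F, chromosome 16 from 2479392 to 2508859 on the plus strand), the substrate receptor of another ubiquitin ligase, was at 3.38 RPKM in si-Control, 5.37 in si-HOIL-1#1 and 7.42 in si-HOIL-1#2. Its log2 ratios were 0.54 and 0.94, and on reads the intervals were 0.51 to 0.83 and 0.99 to 1.29.

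In cytokinesis, ANLN and ECT2 differed. ANLN (anillin, chromosome 7 from 36429412 to 36493400 on the plus strand), the scaffold of the contractile ring, was at 13.3, 21.0 and 22.9 RPKM, with log2 ratios of 0.62 and 0.74. ECT2, the exchange factor that activates RhoA at the cell equator, was at 29.5, 28.3 and 27.3 RPKM, with log2 ratios of -0.06 and -0.11.

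MKI67 had the highest ratio of all 38 genes in each comparison on the log2(RPKM + 1) scale. It encodes Ki-67, the coat protein of mitotic chromosomes that pathologists stain as a proliferation marker, and lies on chromosome 10 from 129894923 to 129924468 on the minus strand. It was at 11.9 RPKM (5471 reads) in si-Control, 22.5 (11386 reads) in si-HOIL-1#1 and 25.2 (11453 reads) in si-HOIL-1#2. The level was 190% and 213% of si-Control, with log2 ratios of 0.87 and 1.03. On reads, without the pseudocount, they were 0.93 (interval 0.88 to 0.97) and 1.09 (1.04 to 1.14), and with si-HOIL-1#2 CCNF was then higher (1.14). TOP2A, the topoisomerase that untangles sister chromatids and is often read as a proliferation marker beside Ki-67, was at 29.6, 31.1 and 31.1 RPKM, a log2 ratio of 0.07 in each comparison. The ratio of MKI67 to TOP2A RPKM was therefore 0.401 with si-Control, 0.725 with si-HOIL-1#1 and 0.812 with si-HOIL-1#2. Between the genes at the ends of the range, MKI67 and HMMR, the same ratio went from 0.519 to 2.68 and 2.15.

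The promoters of these 2 genes are shown for the same letters, since they mark the ends of the range. The MKI67 stretch (chr10:128126424-128126673, minus strand) held TTTGAA at positions -47 and -29 and ATTGG at 2 places, of which 1 overlaps the second TTTGAA. The HMMR stretch (chr5:163460382-163460631, plus strand) held TTTGAA at positions -28 and -22 and CCAAT or ATTGG at 5 places, of which 2 overlap. Both genes therefore carried CHR and CCAAT letters close to the start.
MKI67: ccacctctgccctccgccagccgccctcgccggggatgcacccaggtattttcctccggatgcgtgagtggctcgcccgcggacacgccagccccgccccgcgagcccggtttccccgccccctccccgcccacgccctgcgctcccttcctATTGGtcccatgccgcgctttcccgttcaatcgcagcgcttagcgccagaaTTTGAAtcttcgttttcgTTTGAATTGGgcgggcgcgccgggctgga
HMMR: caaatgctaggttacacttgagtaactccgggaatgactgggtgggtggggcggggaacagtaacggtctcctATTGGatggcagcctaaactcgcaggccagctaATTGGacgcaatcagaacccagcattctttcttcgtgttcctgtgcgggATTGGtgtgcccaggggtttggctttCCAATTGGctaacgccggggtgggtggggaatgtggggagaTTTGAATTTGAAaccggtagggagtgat

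CHR letters were found in most mitotic promoters. The RefSeq table held a promoter for 32 of the 38 genes, searched from 250 bases before to 50 bases after the start. AURKA, TTK, TPX2, BIRC5, UBE2C and FOXM1 had no entry. TTTGAA or TTCGAA, on either strand, was found in 23 of 32 mitotic promoters (71.9%), in 16.6% of all 27305 promoters and in 3 of 30 promoters of S phase genes. CCAAT was found in 75.0% of the mitotic promoters, 35.7% of all promoters and 73.3% of the S phase genes. Both occurred together in 59.4% of the mitotic promoters, 6.58% of all promoters and 3 of the 30 S phase promoters. CENPE, KIF2C, CDC25B and CDC25C had neither in this window. The 23 genes with CHR letters had a median log2 ratio of -0.09 in each comparison, and the 9 without them had 0.50 with si-HOIL-1#1 and 0.11 with si-HOIL-1#2. Among the 9 were CCNB1, CCNA2, AURKB, KIF20A and KIF2C on the higher side and CENPE on the lower, so genes without the letters lay on both sides of si-Control. Other forms of the CHR and other starts of each gene were not searched. The 9 are therefore genes without these letters in this window and not genes shown to lack a CHR. A match of letters is a description of the sequence and not a measured binding site.

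The 2 siRNAs were also compared with each other, without the si-Control library. The median log2 ratio of si-HOIL-1#2 to si-HOIL-1#1 over the 38 genes was -0.0073. On the log2(RPKM + 1) scale none of them was 1.5-fold higher or lower, beside 3.85% and 2.32% of all genes. The counting interval lay above 0 for 14 genes and below 0 for 6, where the shares of all genes were 33.4% and 29.1%. PRC1 came closest to the limit, at 0.58 (interval on reads 0.53 to 0.68). HMMR (0.44), CCNF (0.40) and CDC20 (0.34) were also higher with si-HOIL-1#2. AURKB (-0.43, interval -0.56 to -0.34) and CCNA2 (-0.38, -0.48 to -0.32) were higher with si-HOIL-1#1.

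Beside the 38 genes, 73 other mitotic genes passed the filter, among them condensin, centromere and spindle genes. Their median log2 ratio was 0.31 with si-HOIL-1#1 and 0.23 with si-HOIL-1#2, higher than that of the 38. At least 1.5-fold higher were 20 and 18 of the 73 (27.4% and 24.7%), beside 12.1% and 11.3% of all genes. At least 1.5-fold lower were 5 and 4 (6.85% and 5.48%), beside 11.6% and 9.32% of all genes. The highest and lowest were CDCA5 (sororin, which protects cohesion), with log2 ratios of 1.56 and 1.31, and GAS2L3, with -1.01 and -0.68. The 8 other mitotic kinesins ran from KIF18B (0.89 and 0.89) to KIF20B (-0.28 and -0.25). This list holds KIF3B (-0.06 and 0.29), although its motor partner KIF3A was listed with the kinesins that carry cargo outside mitosis. With the libraries scaled to equal totals, the median of these 8 kinesins with si-HOIL-1#1 went from 0.04 to -0.0050.

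S phase genes, which copy DNA or make its building blocks, are given for comparison. Like the other lists, this one was chosen with earlier results of these data known. Of 41 S phase genes, 26 (63.4%) were at least 1.5-fold higher with si-HOIL-1#1 and 27 (65.9%) with si-HOIL-1#2, beside 12.1% and 11.3% of all genes. None was 1.5-fold lower, beside 11.6% and 9.32% of all genes, and the median log2 ratio was 0.73 in each comparison. RRM2, the small subunit of ribonucleotide reductase, was the highest, at 12.6, 64.3 and 50.2 RPKM. CASP8AP2 lay close to si-Control, with log2 ratios of -0.03 and 0.13. The 38 mitotic genes held 6 and 6 that were higher (15.8% each), and 6 and 4 that were lower (15.8% and 10.5%), by the same limit.

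GC content moved with the ratios, in the mitotic genes and in the transcriptome alike. Over the 38 genes, Pearson's r between the GC content of the longest coding transcript and the log2 ratio was 0.364 with si-HOIL-1#1 and 0.400 with si-HOIL-1#2 (Spearman's rho 0.389 and 0.437). Over 10553 protein-coding genes it was 0.228 and 0.371. These values run across genes of the same libraries, which are not independent replicates. With the protein-coding genes split by GC content into 10 groups of near-equal size, the group median went from -0.22 at the lowest GC in each comparison to 0.13 and 0.31 at the highest.

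In the mitotic genes, CENPE (35.3% GC) and HMMR (36.7% GC) had the lowest GC contents and were among the lowest ratios, whereas ANLN (40.0% GC) was among the highest ratios. The 19 genes of lower GC had medians of -0.09 and -0.03, and the 19 of higher GC had 0.22 and 0.15. When the median of each gene's GC group was subtracted, the median of the 38 genes was 0.03 with si-HOIL-1#1 and 0.11 with si-HOIL-1#2. After this step 4 of the 38 were at least 1.5-fold higher and 7 lower with si-HOIL-1#1, beside 8.97% and 10.8% of the genes so centred. With si-HOIL-1#2, 4 were higher and 2 lower, beside 6.97% and 8.18%. MKI67 and ANLN were among the higher, and HMMR and CCNB2 among the lower, in each comparison. Both comparisons share the si-Control library, so an error in that library would appear in each. Others went from past the limit to within it and kept their side of si-Control. With si-HOIL-1#1 these were BIRC5 (0.67 before and 0.53 after), AURKB (0.68 and 0.50) and NUF2 (-0.62 and -0.48). With si-HOIL-1#2 they were BIRC5 (0.66 and 0.51), KIF20A (0.60 and 0.52), NUF2 (-0.65 and -0.51) and CENPE (-0.71 and -0.49). PLK1 and CDC20 were past it on the lower side with si-HOIL-1#1 after this step (-0.63 and -0.62). Whether GC content itself set any of these ratios was not tested.

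Neighbouring genes, copies and seed matches bear on single values. An entry of at least 1 RPKM on the opposite strand overlapped 7 of the 38 genes. The library kit was directional, but the strand setting of the counting is not given in the sources used here. Of these neighbours, EXOSC9 over CCNA2 was at 15.8, 23.5 and 23.0 RPKM and FAM53C over CDC25C at 20.4, 31.95 and 31.3 RPKM, both higher than the mitotic gene beside them in at least 1 library. The 13 listed pseudogenes or close paralogs of the 38 genes stayed at or below 2.11 RPKM (UBE2CP5, beside UBE2C at 26.7 to 41.9 RPKM). The seed stretch of si-HOIL-1#1 occurred in the longest coding transcript of 13 of the 38 genes (34.2%) and of 23.8% of 10553 genes, and that of si-HOIL-1#2 in 12 (31.6%) and 29.2%. The mitotic genes with a match showed a median of 0.07 for si-HOIL-1#1, against -0.06 for those without. For si-HOIL-1#2 the medians were -0.02 and -0.0084. Over the 10553 genes the medians with and without a match were -0.04 and 0.05 for si-HOIL-1#1 and -0.03 and 0.08 for si-HOIL-1#2. CENPE, KIF18A, TTK and TOP2A held a match to both seeds, while HMMR, CCNB2 and PRC1 held none.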

How the data were processed

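RNA from Caki-1 cells was sequenced in 3 libraries, 1 per group. Per the labels, ribosomal RNA was removed, a directional kit was used and reads were paired-end. The submitters' processing notes name hg19, TopHat2, FastQC, Trimmomatic and HTSeq, with no role or order. The authors deposited 1 table with an RPKM value per gene and library, and coordinates are those of that table. Its columns of the authors' own comparison (a mean, a log2 fold change, p and q) were not used. The log2 ratio of each siRNA library to si-Control was computed on RPKM + 1 for the 12403 genes that averaged 1 RPKM or more. A gene was counted as higher or lower at 1.5-fold or more. Library totals were recovered from RNAs of up to 200 nt. Reads were the smallest whole numbers giving the 3 RPKM values (tolerance 0.002, length up to 50000 nt), found for 99.9% of these genes and for all 38. For 6 of the 38 (among them BUB1, NDC80 and BIRC5) the fitted length was under 0.6 of the transcript, so the reads are minimum numbers and the intervals wider than needed. The steps were tested on simulated data.

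The mitotic genes and the gene lists were chosen with earlier results of these data known. Named genes are the 38, RBCK1, in each related list the genes highest and lowest by the smaller of their 2 log2 ratios, and partners in complexes of the 38 or overlapping genes, which were chosen after their values were seen. Counts of genes past a limit with both siRNAs were not made, since both comparisons share si-Control. Transcript sequences came from GENCODE 29 and promoters from RefSeq (GRCh38.p14). Alternatives were a pseudocount of 0.1 or 5 RPKM, a filter at 5 RPKM or none, equal medians or totals, limits of 1.25-fold and 2-fold, means for medians and, chosen after seeing the data, no pseudocount and centring by 10 groups of GC content. The software was matplotlib 3.10.9, scipy 1.17.1, pandas 2.3.3 and numpy 2.4.6 under Python 3.11.15.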

Additional observations from a re-analysis of the deposited data

How the results depend on the processing

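No paired analysis was possible because each group had 1 library, and leaving out a library would remove a group. The medians of the 38 genes were judged by a typical single-gene interval, from the median lower bound to the median upper bound. The counting error of a median over 38 genes was not computed. All 27 alternative values moved by less than the distance from the centre of that interval to its bounds, although their sign near 0 varied. Those without a filter could not move, since all 38 genes had passed the filter at 1 RPKM. With si-HOIL-1#2, where the bounds were -0.13 and 0.12, centring by GC content took the median from -0.0084 to 0.11. With si-HOIL-1#1 the 6 higher and 6 lower genes became 2 and 3 with a pseudocount of 5 RPKM (5.51% and 4.76% of all genes), 0 and 1 at a 2-fold limit (2.91% and 3.27%), and 12 and 11 at the limit set below 1.5-fold (25.8% and 24.3%). With si-HOIL-1#2 the 6 higher and 4 lower genes became 3 and 2 with a pseudocount of 5 RPKM (4.81% and 3.83% of all genes) and 1 and 0 at a 2-fold limit (2.50% and 2.27%). The lower genes were 7 at the limit set below 1.5-fold (20.8%) and 2 after centring by GC content (8.18%), an alternative chosen after seeing the data. Dropping the pseudocount was also chosen after seeing the data. It gave 8 higher and 6 lower genes with si-HOIL-1#1, beside 15.6% and 15.8% of genes with levels above 0. For si-HOIL-1#2 it gave 6 and 4, beside 15.4% and 12.8%. Of the ratios of single named genes, 645 moved by less than the distance from the centre of their counting interval to its bounds, and 59 by more. The 645 include every value with a filter at 5 RPKM or none. A filter leaves the ratio of a single gene unchanged, so those values could not move. Of the 59, 43 came with a pseudocount of 5 RPKM. None changed sign among ratios whose counting interval excluded 0. Ratios whose interval included 0 could change sign, such as KIF11 and DLGAP5 with si-HOIL-1#1 under equal totals. Each of the 38 genes had at least 300 reads per library, but the spread between cultures was not measured.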

Other observations

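Genes that work beside the 38 mitotic genes were read in the same way. The 15 subunits of the anaphase-promoting complex with FZR1 had medians of 0.10 and 0.16, with ANAPC2, part of its catalytic core (6.67, 11.9 and 10.7 RPKM), on the higher side and ANAPC10, a substrate-binding subunit (7.14, 4.75 and 4.54 RPKM), on the lower. In each comparison 1 of the 15 (6.67%) was at least 1.5-fold higher, beside 12.1% and 11.3% of all genes. With si-HOIL-1#1 another was at least 1.5-fold lower, beside 11.6% of all genes. The 13 components of MuvB, B-MYB and DREAM had medians of 0.14 and 0.02, and that of si-HOIL-1#2 became -0.03 with equal medians. Among them LIN37, a MuvB subunit, was at 2.03, 4.58 and 5.67 RPKM, and E2F5, a repressive E2F, at 16.9, 12.2 and 9.04 RPKM.

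Kinesins that carry cargo outside mitosis were listed as well. Of 23 such genes, 14 passed the filter, with medians of -0.27 with si-HOIL-1#1 and 0.01 with si-HOIL-1#2, the latter negative with equal medians (-0.04) or totals (-0.02). KIF3C was at 2.61, 5.55 and 5.49 RPKM, while KIFAP3, the adaptor of the KIF3A and KIF3B motor, was at 9.48, 5.35 and 5.14 RPKM. The CDK1-binding proteins CKS1B (72.6, 92.9 and 83.5 RPKM) and CKS2 (56.8, 76.5 and 67.9 RPKM) were above si-Control, unlike CDK1.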
